A study of Mus musculus with 2 samples.

Results

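The adipogenic transcription factors are a named set of 10 regulators of fat cell differentiation, and 9 of them were in the features tables of 27998 genes: Cebpb, Klf4, Klf9, Ebf1, Ebf2, Zfp423, Pparg, Cebpa and Srebf1. Cebpd was not analysed here. Their transcripts were counted in the stromal vascular fraction of epididymal white adipose tissue, the fat depot beside the testis, of male mice labelled C57BL/6 (C57BL/6J in the methods of the study). The mice were fed a low fat diet (LFD) or a high fat diet (HFD) for 24 weeks from 6 weeks of age, and no allele or further agent is named for either group. Each diet was profiled as 1 droplet-based single-cell library, and the number of mice behind a library is not stated. Each captured transcript carries a unique molecular identifier (UMI) and is counted once.

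Fat cells arise from fibroblast-like progenitors through a relay of transcription factors. C/EBP beta, C/EBP delta and several KLF proteins act early, EBF proteins and Zfp423 mark or commit cells to the lineage, and PPAR gamma and C/EBP alpha then sustain each other and switch on genes of lipid storage. Several of these factors also work outside the lineage, PPAR gamma in endothelial cells and macrophages, EBF1 in B cells and KLF4 in blood vessels and myeloid cells.

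In all, 1113 barcodes with 7356278 UMIs were counted on LFD and 1144 barcodes with 8412325 UMIs on HFD, and 0 barcodes were shared. Barcodes with at least 200 genes numbered 1057 on LFD and 1117 on HFD. They were classed by UMI thresholds on marker genes. At least 10 Dcn UMIs made a fibroblast, and fibroblasts with at least 3 UMIs of Pi16, Dpp4 and Sema3c together were kept apart as Pi16/Dpp4/Sema3c fibroblasts, the rest being called matrix fibroblasts. Endothelial cells had at least 3 UMIs of Cdh5 and Cldn5, mural cells (the pericytes and smooth muscle cells around vessels) at least 5 of Rgs5, Kcnj8, Abcc9 and Notch3, and macrophages at least 10 of C1qa, C1qb and C1qc. Levels are in CPM, counts per 1e6, that is, the UMIs of a gene scaled to 1e6 UMIs of the class, with exact Poisson 95% intervals, and HFD/LFD ratios carry exact conditional binomial 95% intervals. These intervals cover counting error only. A limit given for a count of 0 is set at 3 UMIs or 3 barcodes, which lies below the upper end of the exact interval. With 1 library per diet there was no test and no p-value, and diet cannot be told apart from the animals or from the handling of each library.

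Matrix fibroblasts numbered 204 on LFD and 207 on HFD, and macrophages 230 and 321. Pi16/Dpp4/Sema3c fibroblasts made up 16.4% of LFD barcodes (173) and 7.52% of HFD barcodes (84). Endothelial cells numbered 98 and 115. The mural class held 5 and 6 barcodes, too few for a level. A further 51 LFD and 92 HFD barcodes met the endothelial and the mural rule together, with medians of 13270 and 9029 UMIs against 4318 and 3156 in endothelial cells. Doublets were not called, and these barcodes are given as a group of their own. The 5 fibroblast markers (Dcn, Pdgfra, Col1a1, Col3a1, Lum) summed to 30895 CPM in LFD matrix fibroblasts and to 46.4 CPM in LFD macrophages, and the 5 macrophage markers (C1qa, C1qb, C1qc, Adgre1, Mrc1) to 15436 CPM in LFD macrophages. Most of each sum comes from the genes of the class rules, Dcn and the C1q genes, and so follows from the sorting. Outside the rules, LFD matrix fibroblasts had Pdgfra at 458, Col1a1 at 1074, Col3a1 at 3776 and Lum at 734 CPM. LFD macrophages had Adgre1 at 441 and Mrc1 at 1907 CPM. Pi16/Dpp4/Sema3c fibroblasts also held markers of mesothelial cells, the lining of the fat pad. All 4 of these (Msln, Upk3b, Krt19, Wt1) were present, at a sum of 1221 CPM on LFD and 1047 CPM on HFD, against 222 and 163 CPM in matrix fibroblasts, where most was Wt1 (164 and 149 CPM). They lay mainly in 25 of the 173 LFD and 12 of the 84 HFD barcodes, those with at least 3 UMIs of Msln, Upk3b and Krt19, whose sums were 5306 and 5081 CPM against 188 and 140 CPM in the rest of the class. Those barcodes had little Pi16, at 29.7 CPM on LFD and 0 UMIs on HFD against 930 and 576 CPM in the rest. The other genes of the rule did not follow Pi16. Part of this is set by the rule, since barcodes without Pi16 enter the class only on Dpp4 and Sema3c UMIs. Dpp4 was higher in the barcodes with mesothelial markers, at 421 and 516 CPM against 269 and 187 CPM. In these barcodes Sema3c stood at 344 and 377 CPM against 446 and 482 CPM, and Dcn at 14737 and 14614 CPM against 15523 and 12671 CPM. Whether they are mesothelial cells or doublets was not tested. Members that differ between these subsets are given both ways below, a split chosen after the data had been seen.

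The start-site regions of 4 members are shown, as the regions of members described most closely below. Klf4, Klf9 and Cebpb are rapidly inducible genes, and Pparg has several start sites, of which the one shown holds C/EBP sites. Each sequence is the 250 bases before a RefSeq start site on GRCm38.p6, read 5′ to 3′ on the strand of the gene. Capitals mark TGACG, the core of the cAMP response element, in the first 3 sequences, and TTNNGCAA, a C/EBP site, in that of Pparg. Both strands were searched.
Klf4 (chr4:55532476-55532725, minus strand): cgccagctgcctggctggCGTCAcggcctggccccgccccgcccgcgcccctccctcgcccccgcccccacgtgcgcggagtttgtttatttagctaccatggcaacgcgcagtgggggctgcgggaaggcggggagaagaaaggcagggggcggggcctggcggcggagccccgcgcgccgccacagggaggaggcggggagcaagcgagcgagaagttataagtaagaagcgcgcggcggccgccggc
Klf9 (chr19:23140976-23141225, plus strand): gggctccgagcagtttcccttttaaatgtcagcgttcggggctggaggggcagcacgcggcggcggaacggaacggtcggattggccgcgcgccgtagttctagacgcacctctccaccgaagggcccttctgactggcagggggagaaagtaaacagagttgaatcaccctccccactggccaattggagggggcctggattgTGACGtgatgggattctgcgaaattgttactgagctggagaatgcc
Cebpb (chr2:167688665-167688914, plus strand): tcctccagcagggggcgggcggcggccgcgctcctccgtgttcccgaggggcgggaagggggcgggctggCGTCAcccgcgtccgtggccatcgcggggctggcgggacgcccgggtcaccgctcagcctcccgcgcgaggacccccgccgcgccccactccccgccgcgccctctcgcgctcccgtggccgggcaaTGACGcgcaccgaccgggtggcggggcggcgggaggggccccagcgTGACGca
Pparg (chr6:115421816-115422065, plus strand): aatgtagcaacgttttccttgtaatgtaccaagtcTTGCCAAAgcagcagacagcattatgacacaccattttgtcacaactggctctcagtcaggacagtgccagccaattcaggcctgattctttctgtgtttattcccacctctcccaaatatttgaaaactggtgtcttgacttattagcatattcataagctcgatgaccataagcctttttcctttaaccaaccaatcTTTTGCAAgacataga

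RefSeq promoters were listed for 8 of the 9 members, Ebf2 being the member with none, as 14 start-site regions of 300 bases (250 before and 50 after the start). TGACG was found in 4 of these 14 regions, those of Klf4, Klf9 and Cebpb and 1 of Ebf1, and in 20.8% of all 32851 promoters of that length. The full element TGACGTCA, which holds TGACG on both strands, was in 0 of the 14 and in 1.79% of all promoters. TTNNGCAA was in 2 of the 14, 1 of Pparg and 1 of Zfp423, and in 10.8% of all promoters. The serum response element (CArG box) was in 0 of the 14 and in 1.63% of promoters. A match is a description of letters, and no binding was measured.

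The plot of levels by class sets out all 9 members. In both libraries Cebpb, Klf4, Klf9 and Ebf2 were highest in a fibroblast or mural class, 4 of the 9 members. Pparg was high in endothelial cells and Cebpa in macrophages, while Ebf1 was nearly missing from macrophages and Srebf1 was low throughout.

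**Figure D1:**
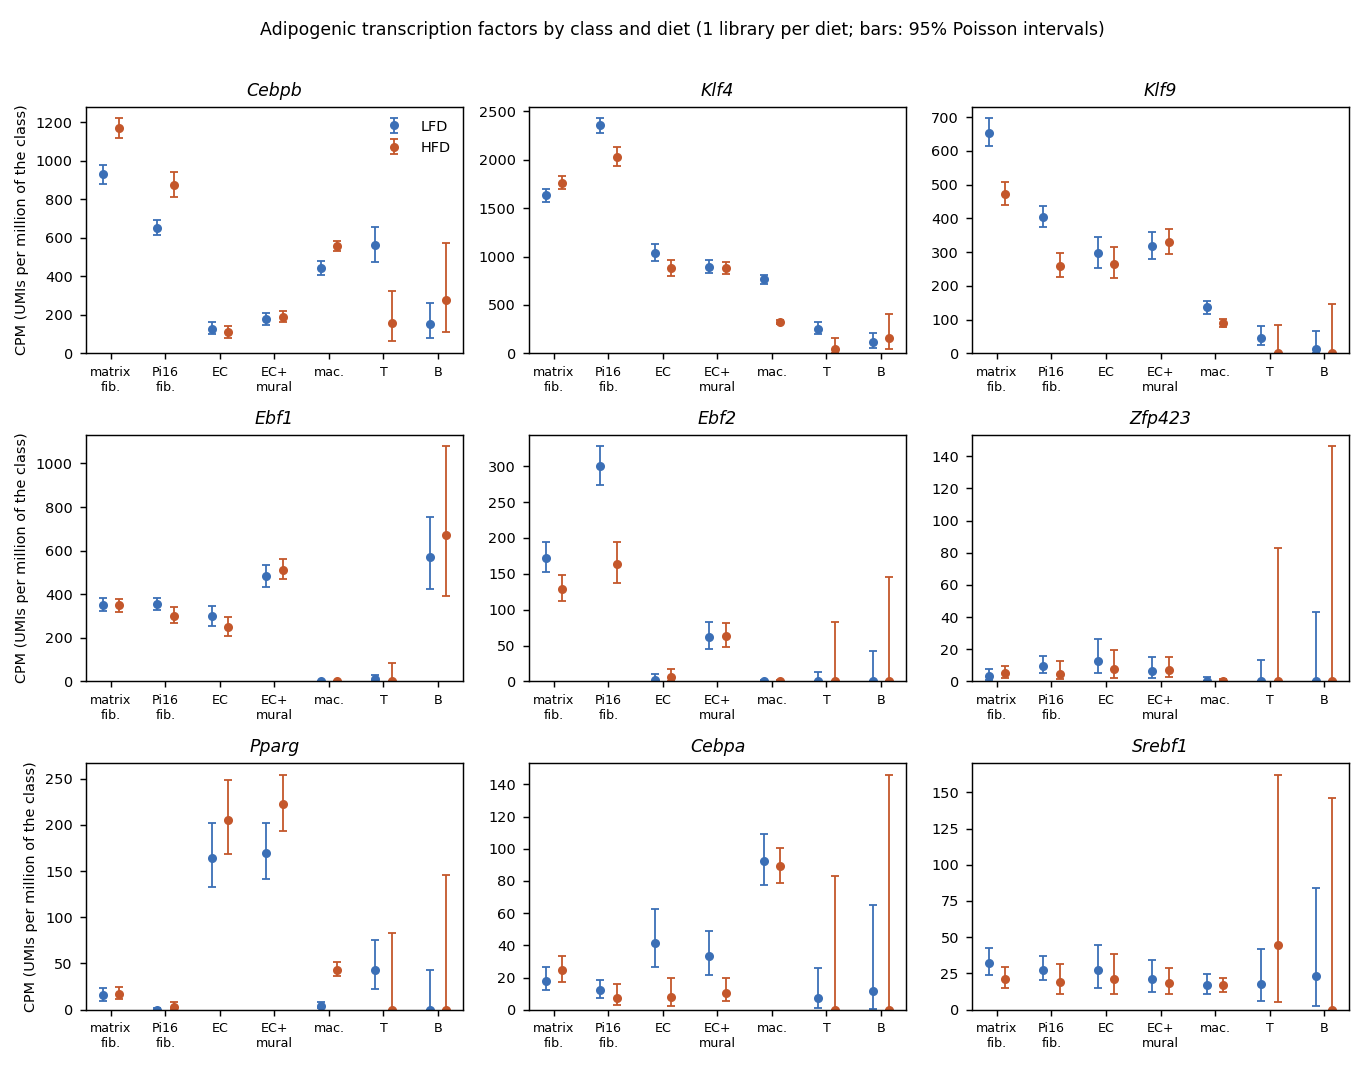
CPM (y axis, linear from 0, a scale of its own for each gene) of 9 adipogenic transcription factors in 7 groups of barcodes on LFD (blue) and HFD (orange). The points are sums over all barcodes of a group and the bars are exact Poisson 95% intervals. EC stands for endothelial cells, EC+mural for barcodes meeting both rules and mac. for macrophages. The 5 and 6 mural barcodes are left out. Pparg stands highest in the endothelial groups, at 165 to 222 CPM, and Ebf1 has 1 UMI per library in macrophages.

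Among the early factors, C/EBP beta (gene Cebpb, chr2:167688915-167690418) is induced within hours of an adipogenic stimulus and acts before PPAR gamma. In matrix fibroblasts Cebpb stood at 930 CPM (882 to 980) on LFD and 1170 CPM (1118 to 1224) on HFD. In Pi16/Dpp4/Sema3c fibroblasts it stood at 652 CPM (614 to 692) and 877 CPM (814 to 943), below the matrix class in each library. Without the barcodes of mesothelial markers it stood at 722 and 973 CPM, still below. In macrophages the level was 442 CPM (409 to 477) on LFD and 558 CPM (531 to 586) on HFD. The HFD/LFD ratios of these 3 classes were close to each other, at 1.26 (1.17 to 1.35), 1.34 (1.22 to 1.48) and 1.26 (1.15 to 1.38). With class thresholds doubled the Pi16/Dpp4/Sema3c ratio was 0.964. Endothelial cells had less Cebpb, at 128 and 108 CPM, with intervals of 100 to 162 and 81.9 to 141 that overlapped.

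KLF4 (gene Klf4, chr4:55527143-55532466) is an immediate transcriptional activator of Cebpb in the adipogenic relay and has separate roles in vessels and myeloid cells. It was highest in Pi16/Dpp4/Sema3c fibroblasts, at 2355 CPM (2282 to 2430) on LFD and 2031 CPM (1935 to 2131) on HFD. Within that class it stood at 988 CPM (885 to 1100) and 1052 CPM (895 to 1229) in the barcodes with mesothelial markers and at 2701 CPM (2613 to 2790) and 2251 CPM (2139 to 2368) in the rest. Matrix fibroblasts followed at 1632 CPM (1568 to 1698) and 1763 CPM (1698 to 1829), and endothelial cells at 1039 CPM (955 to 1127) and 881 CPM (802 to 966). Between diets the ratio was 1.08 (1.02 to 1.14) in matrix fibroblasts, 0.862 (0.814 to 0.913) in Pi16/Dpp4/Sema3c fibroblasts (0.834 without the barcodes of mesothelial markers) and 0.848 (0.748 to 0.961) in endothelial cells. All of these lay well within 2-fold, and the direction in matrix fibroblasts and endothelial cells depended on the barcodes kept, with ratios of 0.987 and 1.09 under the filter of the study (200 to 2500 genes and under 5% mitochondrial UMIs). In macrophages Klf4 stood at 764 CPM (721 to 810) on LFD and 322 CPM (302 to 343) on HFD, which is taken up with the other macrophage values.

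KLF9 (gene Klf9, chr19:23141226-23168134) is a glucocorticoid-responsive activator of Pparg in preadipocytes. Matrix fibroblasts had 654 CPM (614 to 697) on LFD and 473 CPM (440 to 508) on HFD. In Pi16/Dpp4/Sema3c fibroblasts the level was 405 CPM (375 to 437) and 259 CPM (225 to 296). Within that class Klf9 stood at 288 CPM (233 to 351) and 265 CPM (189 to 360) in the barcodes with mesothelial markers. In the rest it stood at 434 CPM (400 to 471) and 257 CPM (220 to 299). Macrophages had 136 CPM (118 to 156) and 88.8 CPM (78.4 to 100). Klf9 was thus lower on HFD in each of these classes, by ratios of 0.723 (0.657 to 0.796), 0.639 (0.545 to 0.747) and 0.654 (0.542 to 0.790). Within the Pi16/Dpp4/Sema3c class the ratio was 0.919 (0.620 to 1.34) in the barcodes with mesothelial markers and 0.593 (0.497 to 0.703) in the rest. In endothelial cells the ratio was 0.894, with an interval of 0.707 to 1.13 that includes 1. Of 8 glucocorticoid-responsive genes, 0 were 2-fold apart in either fibroblast class, where 5.1% of all genes in the matrix class and 4.59% in the Pi16/Dpp4/Sema3c class were, so the count does not set the list apart. Fkbp5, a chaperone cofactor induced by glucocorticoids, stood at 73.8 and 55.0 CPM in matrix fibroblasts, while the kinase gene Sgk1 stood at 177 CPM on LFD and 345 CPM on HFD there.

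Klf9 had Fos (Pearson r 0.971) and Egr1 (0.968) as the genes of most similar pattern over 13 sums of class and library, on the scale of log2 of CPM plus 10. Both are immediate early genes, transcribed within minutes of a stimulus such as tissue dissociation. The 16 immediate early genes summed to 25497 CPM on LFD and 20887 CPM on HFD in matrix fibroblasts, to 17642 and 15626 CPM in Pi16/Dpp4/Sema3c fibroblasts, and to 17204 and 10046 CPM in macrophages. Their part in the Klf9 and Klf4 values was not tested. Among barcodes at or below the median immediate early share of their class, the Klf9 ratio was 0.929 in macrophages, with an interval of 0.645 to 1.37, and 0.531 in Pi16/Dpp4/Sema3c fibroblasts, with an interval of 0.404 to 0.692. Under the filter of the study the macrophage ratio was 0.317 on 79 Klf9 UMIs. Over 7 alternative settings the Klf9 ratio ranged from 0.531 to 0.882 in Pi16/Dpp4/Sema3c fibroblasts and from 0.703 to 0.903 in matrix fibroblasts. Both upper ends lay above the intervals of the main ratios.

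Of the lineage factors, EBF2 (gene Ebf2, chr14:67233292-67430918) marks adipocyte progenitors and takes part in brown and beige fat differentiation. Ebf2 stood at 300.01 CPM (274 to 327) in LFD Pi16/Dpp4/Sema3c fibroblasts and at 164 CPM (137 to 194) in the same class on HFD. The barcodes with mesothelial markers held 8 of these UMIs on LFD (23.7 CPM) and 0 on HFD, and the rest of the class stood at 370 CPM (338 to 404) and 201 CPM (168 to 238). Matrix fibroblasts had 172 CPM (152 to 195) on LFD and 129 CPM (112 to 148) on HFD. The HFD level was lower in both classes, at 0.547-fold (0.449 to 0.662) and 0.751-fold (0.622 to 0.905) of the LFD level, and without the barcodes of mesothelial markers the first was 0.543 (0.446 to 0.658). Ebf2 had 0 UMIs in LFD macrophages and 2 in HFD macrophages, and 1 and 3 UMIs in endothelial cells, far below its fibroblast levels. The barcodes meeting both vascular rules stood between, at 62.3 and 63.8 CPM. Over all barcodes with at least 200 genes Ebf2 stood at 114 CPM on LFD and 53.6 CPM on HFD (ratio 0.471, 0.419 to 0.529), in a sample that also held fewer Pi16/Dpp4/Sema3c fibroblasts. Of all genes with at least 30 UMIs there, 5.58% were at least 2-fold lower on HFD. The genes of closest pattern were Clip3 (r 0.998), Hspb8 (0.998) and Scara5 (0.997).

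EBF1 (gene Ebf1, chr11:44617317-45008091) promotes adipogenesis upstream of Pparg and Cebpa and is also required for B cell development. Matrix fibroblasts had 353 CPM (323 to 384) on LFD and 349 CPM (321 to 379) on HFD, a ratio of 0.989 (0.876 to 1.12). In Pi16/Dpp4/Sema3c fibroblasts the levels were 355 CPM (327 to 384) and 302 CPM (266 to 342). Only 3 LFD UMIs and 1 HFD UMI of these lay in the barcodes with mesothelial markers, and the rest of the class stood at 442 CPM (407 to 479) and 369 CPM (325 to 418). Endothelial cells stood at 299 CPM (255 to 348) and 248 CPM (207 to 295). The 20 LFD and 8 HFD B cells had 572 CPM (423 to 756) and 673 CPM (392 to 1078). Macrophages had 1 UMI in each library, seen in 1 of 230 and 1 of 321 barcodes. Ebf1 was therefore shared by fibroblasts, endothelium and B cells and close to 0 in macrophages. The barcodes meeting both vascular rules had 482 CPM (434 to 534) and 513 CPM (469 to 561), above the endothelial class. The 5 LFD mural barcodes held 24 UMIs and the 6 HFD ones 3, all in 1 barcode.

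Zfp423 (chr8:87661810-87959595), a zinc finger factor that marks committed preadipocytes and favours white over beige fat, was sparse. It had 37 UMIs on LFD and 28 on HFD over all barcodes. In Pi16/Dpp4/Sema3c fibroblasts there were 16 UMIs on LFD and 4 on HFD, and in matrix fibroblasts 5 and 8. No class reached the minimum of 30 UMIs that was set for counting a difference. Over all barcodes with at least 200 genes the HFD/LFD ratio was 0.657, with an interval of 0.387 to 1.10 that includes 1. Macrophages had 0 UMIs in both libraries, which allows up to 2.02 CPM on LFD and 1.03 CPM on HFD.

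PPAR gamma (gene Pparg, chr6:115360951-115490399) is the nuclear receptor at the centre of fat cell differentiation. In the fibroblasts it was low and almost confined to the matrix class. Matrix fibroblasts had 23 UMIs on LFD (15.4 CPM, 9.78 to 23.2) and 27 on HFD (16.9 CPM, 11.1 to 24.6). Pi16/Dpp4/Sema3c fibroblasts had 0 UMIs on LFD, which allows up to 1.80 CPM, and 2 on HFD (2.43 CPM, 0.294 to 8.78). The matrix class was thus higher in each library, by 6.95-fold on HFD (1.75 to 60.3) and by 8.59-fold on LFD when set against a floor of 3 UMIs in the Pi16/Dpp4/Sema3c class. The exact 95% interval of the LFD ratio begins lower, at 6.44-fold.

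Pparg was higher in the endothelial groups. Endothelial cells had 165 CPM (133 to 202) on LFD and 205 CPM (168 to 248) on HFD, with Pparg UMIs in 47 of 98 and 51 of 115 barcodes. The barcodes meeting both vascular rules had 170 CPM (141 to 202) and 222 CPM (193 to 254). The ratios, 1.25 (0.933 to 1.67) and 1.31 (1.05 to 1.65), were within 2-fold. Nes, the intermediate filament gene nestin, was among the genes of closest pattern to Pparg (r 0.954), with 224 CPM on LFD and 304 CPM on HFD in endothelial cells, after Inf2 (0.974).

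C/EBP alpha (gene Cebpa, chr7:35119293-35121928) keeps Pparg on in fat cells and is also a factor of the myeloid lineage. Among the 7 plotted groups it was highest in macrophages, at 92.2 CPM (77.4 to 109) on LFD and 89.2 CPM (78.7 to 101) on HFD. Matrix fibroblasts had 18.1 CPM (11.9 to 26.4) and 24.4 CPM (17.3 to 33.3), and Pi16/Dpp4/Sema3c fibroblasts 20 UMIs on LFD and 6 on HFD. On HFD the matrix class was 3.35-fold higher than the Pi16/Dpp4/Sema3c class (1.41 to 9.67) and on LFD 1.51-fold (0.818 to 2.85). The genes of closest pattern were Slc23a2 (r 0.945), Tmem106a (0.907) and Lgmn (0.895).

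In the endothelial groups Cebpa was lower on HFD. Endothelial cells had 23 UMIs on LFD (41.6 CPM, 26.4 to 62.4) and 4 on HFD (7.74 CPM, 2.11 to 19.8), which is under the minimum of 30. Barcodes meeting both vascular rules had 33.1 CPM (21.4 to 48.9) and 10.6 CPM (5.10 to 19.6), a ratio of 0.321 (0.138 to 0.692). Among those of them low in immediate early UMIs the ratio was 0.414 with an interval of 0.127 to 1.19, and under the filter of the study 0 and 1 UMIs were left. In that group 1 of 8 members with enough UMIs was 2-fold apart, where 2.85% of all genes were. The summed adipocyte markers were lower on HFD in the same groups. The 5 markers Adipoq, Plin1, Cidec, Car3 and Retn, of which 0 were absent, summed to 1572 CPM on LFD and 414 CPM on HFD in endothelial cells, and to 1106 and 388 CPM in the barcodes meeting both rules. Car3 made up most of these sums, at 990 and 288 CPM in endothelial cells and at 760 and 243 CPM in the barcodes meeting both rules. In endothelial cells each of the 5 was lower on HFD, Adipoq at 118 and 36.8 CPM, while in the barcodes meeting both rules Plin1 was the other way, at 21.2 and 34.0 CPM. Among the 38 LFD and 60 HFD endothelial barcodes without an Adipoq or Car3 UMI, Cebpa had 5 and 0 UMIs. The part of adipocyte RNA in these values was not tested. In the 13 LFD barcodes with at least 3 Adipoq UMIs and no other class, Cebpa had 18 UMIs, of which 11 lay in 1 barcode.

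SREBP1 (gene Srebf1, chr11:60199089-60222581) activates genes of fatty acid synthesis. Matrix fibroblasts had 32.2 CPM (23.8 to 42.7) on LFD and 21.3 CPM (14.7 to 29.7) on HFD, and macrophages 16.8 CPM (10.9 to 24.8) and 16.7 CPM (12.4 to 22.1). The ratios, 0.660 (0.412 to 1.05) and 0.995 (0.603 to 1.68), included 1. Over all barcodes with at least 200 genes the ratio was 0.739 (0.595 to 0.917).

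Between the fibroblast classes, 1 of the 9 members was at least 2-fold lower in Pi16/Dpp4/Sema3c fibroblasts in both libraries, which was Pparg, where 2.66% of all genes were. The Pparg count rests on 0 and 2 UMIs in the Pi16/Dpp4/Sema3c class, with an HFD interval that begins at 1.75-fold, and under the filter of the study or with at least 100 UMIs the number of such members was 0. None (0) was at least 2-fold higher in both, where 4.13% of all genes were. Klf9 was lower in the Pi16/Dpp4/Sema3c class, at 0.619-fold on LFD and 0.547-fold on HFD, and Cebpb at 0.701-fold and 0.750-fold. Klf4 and Ebf2 lay on the other side. Klf4 was 1.44-fold (1.37 to 1.52) on LFD and 1.15-fold (1.08 to 1.22) on HFD, and Ebf2 was 1.74-fold (1.49 to 2.03) and 1.27-fold (1.01 to 1.58). Ebf1 stood near level, with an interval of 0.891 to 1.13 on LFD and a ratio of 0.867 (0.744 to 1.01) on HFD. Without the barcodes of mesothelial markers, Ebf1 was higher in the Pi16/Dpp4/Sema3c class on LFD, at 1.25-fold (1.11 to 1.41), and near level on HFD, at 1.06-fold (0.907 to 1.23). Klf4 was then 1.65-fold (1.57 to 1.74) and 1.28-fold (1.20 to 1.36), and Ebf2 2.14-fold (1.84 to 2.50) and 1.55-fold (1.24 to 1.94). Klf9 stayed lower, at 0.664-fold (0.598 to 0.737) and 0.544-fold (0.458 to 0.642). In the barcodes with these markers Klf4 was lower than in matrix fibroblasts, at 0.605-fold (0.538 to 0.679) and 0.597-fold (0.505 to 0.700). Pparg had 0 UMIs in them in both libraries, and its 2 HFD UMIs lay in the rest of the class. The number of members 2-fold apart in both libraries was again 1.

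**Figure D2:**
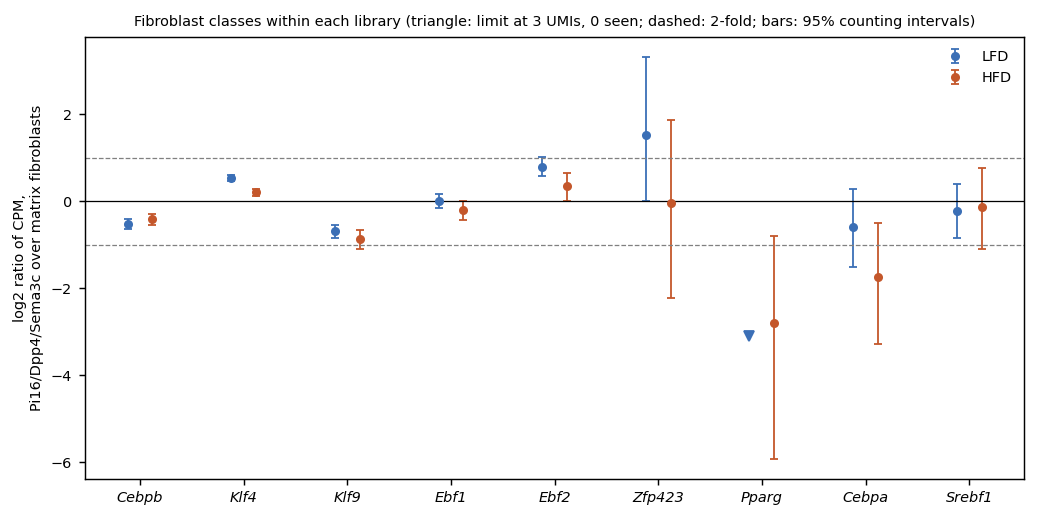
Log2 ratio of CPM between Pi16/Dpp4/Sema3c and matrix fibroblasts (y axis) for each member within the LFD (blue) and the HFD library (orange). Bars are exact conditional binomial 95% intervals, dashed lines mark 2-fold, and the triangle is the limit for Pparg on LFD, which had 0 UMIs in the Pi16/Dpp4/Sema3c class and is set at 3 UMIs. Klf4 and Ebf2 lie above 0 in both libraries, and Cebpb, Klf9 and Pparg below it.

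Between diets, a member was counted when it had at least 30 UMIs over both libraries and its CPM differed at least 2-fold. In matrix fibroblasts 0 of 8 members did, against 5.1% of all genes (1.92% higher on HFD and 3.18% lower). In Pi16/Dpp4/Sema3c fibroblasts it was 0 of 6, against 4.59% (1.56% higher and 3.03% lower). In endothelial cells it was 0 of 5, against 3.83% (1.59% higher and 2.24% lower). In macrophages 2 of 6 members did, Pparg higher and Klf4 lower, against 13.1% of all genes. In the mural class 0 members reached 30 UMIs, and 17.9% of the few genes that did were 2-fold apart. The background is larger in macrophages than in the fibroblast and endothelial classes.

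**Figure D3:**
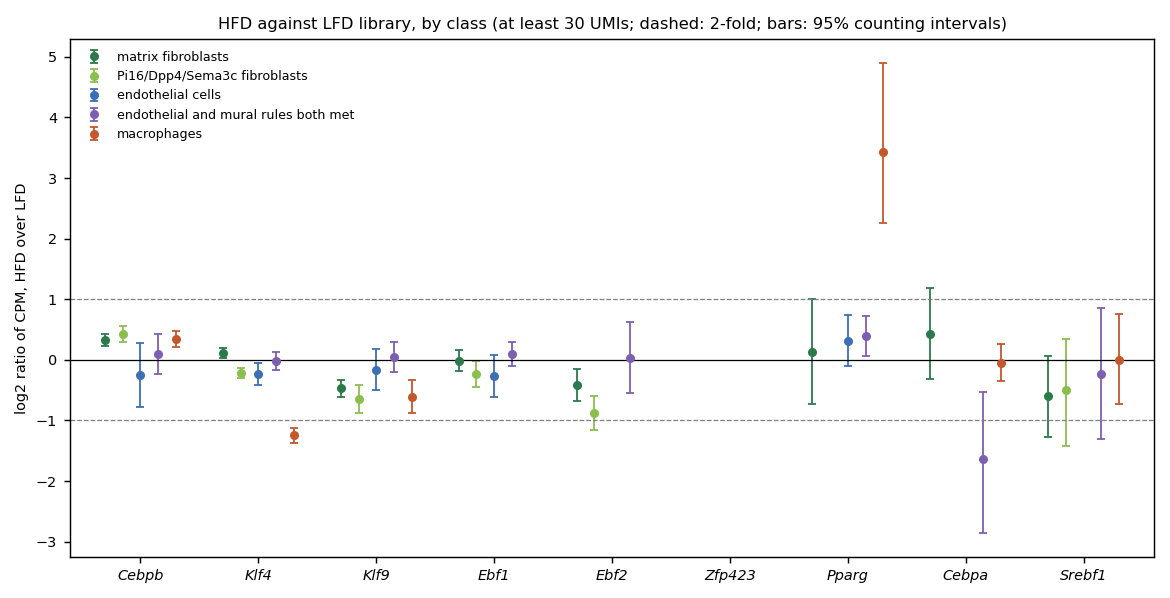
Log2 ratio of CPM, HFD over LFD (y axis), for members with at least 30 UMIs in the class, with exact conditional binomial 95% intervals as bars and 2-fold marked by dashed lines. Colours are the 5 groups of barcodes, and Zfp423 has no point because no class reached 30 UMIs. Pparg in macrophages lies above the 2-fold line at 3.43, Klf4 in macrophages below it at -1.25, and Cebpa in the barcodes meeting both vascular rules at -1.64.

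In macrophages Pparg had 6 UMIs on LFD (4.04 CPM, 1.48 to 8.79) and 127 on HFD (43.4 CPM, 36.2 to 51.6), a ratio of 10.7 (4.80 to 29.8). Of all genes in macrophages 6.36% were at least 2-fold higher on HFD. Pparg UMIs were seen in 5 of 230 LFD barcodes (2.17%) and in 75 of 321 HFD barcodes (23.4%), at median depths of 6328 and 6915 UMIs. T cells had Pparg UMIs in 5 of 62 LFD barcodes (8.06%) at a median of 2811 UMIs (43.1 CPM, with 4 of the 12 UMIs in 1 barcode). LFD Pi16/Dpp4/Sema3c fibroblasts had them in 0 of 173 at a median of 9420 UMIs, which allows up to 1.73% (2.11% by the exact interval). On HFD 0 of 19 T cells had one, which allows a share of barcodes with a UMI of up to 15.8%. With each barcode thinned to 1000 UMIs, 0 of 225 LFD and 14 of 320 HFD macrophages kept a Pparg UMI. The barcode with most Pparg UMIs held 8 of the 127. The 5 adipocyte markers summed to 131 CPM on LFD and 69.0 CPM on HFD in macrophages, mostly as Car3 (86.1 and 44.4 CPM) and Retn (24.9 and 7.18 CPM), while Adipoq stood at 7.40 and 5.47 CPM and Cidec at 10.8 and 11.3 CPM. The endothelial markers stood at 11.4 and 12.6 CPM.

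Within HFD macrophages nearly all Pparg UMIs lay in barcodes poor in Timd4 and Ccl24, markers of resident macrophages, while the 6 LFD UMIs were split evenly. Barcodes with at least 3 UMIs of these genes numbered 174 on LFD and 63 on HFD and had 3 and 1 Pparg UMIs (2.53 CPM, 0.523 to 7.41, and 2.15 CPM, 0.0546 to 12.01). The remaining 56 LFD barcodes had 3 UMIs (9.92 CPM, 2.04 to 29.0) and the remaining 258 HFD barcodes 126 (51.2 CPM, 42.6 to 60.9), so the intervals of both subsets overlap on LFD and not on HFD. The HFD/LFD ratio of Pparg was 0.850 (0.0162 to 10.6) in the first subset, on 4 UMIs, and 5.16 (1.73 to 25.4) in the second, against 10.7 over all macrophages, whose make-up by these subsets differs between the libraries. The HFD library held 72 macrophages with at least 3 UMIs of Cd9, a tetraspanin found on lipid-laden macrophages, and the LFD library 0. Pparg stood at 62.3 CPM (49.3 to 77.8) in these and at 29.2 CPM (21.6 to 38.7) in the other 249 HFD macrophages. Without the Cd9 barcodes the HFD/LFD ratio was 7.24 (3.10 to 20.7). By Trem2 and Spp1, further markers of lipid-associated macrophages, Pparg on HFD was 46.2 CPM (37.1 to 57.0) in barcodes with at least 3 UMIs and 38.1 CPM (27.1 to 52.1) in those with fewer, intervals that overlap. These splits were chosen after the data had been seen.

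Klf4 in macrophages was lower on HFD, at a ratio of 0.422 (0.386 to 0.460), and 6.77% of all genes in the class were at least 2-fold lower. Klf4 UMIs were in 193 of 230 LFD and 227 of 321 HFD barcodes. In Timd4/Ccl24 barcodes it stood at 804 CPM (754 to 857) on LFD and 651 CPM (579 to 728) on HFD, and in the remaining ones at 608 CPM (523 to 703) and 260 CPM (241 to 281). The ratio was thus 0.809 (0.709 to 0.922) in the first subset and 0.428 (0.363 to 0.507) in the second. The Cd9 barcodes of the HFD library were lowest, at 145 CPM (125 to 168). In macrophages with immediate early UMIs at or below the median share the Klf4 ratio was 0.490 (0.420 to 0.574). Without the Cd9 barcodes it was 0.594 (0.541 to 0.652), inside 2-fold, and in barcodes with fewer than 3 Trem2 and Spp1 UMIs 0.570 (0.510 to 0.636). Klf9 was higher in Timd4/Ccl24 barcodes in each library, at 148 CPM (127 to 171) on LFD and 159 CPM (125 to 200) on HFD, than in the remaining ones, at 89.2 CPM (58.8 to 130) and 75.5 CPM (65.1 to 87.2), although the 2 LFD intervals overlap slightly. Its HFD/LFD ratios in these subsets were 1.08 (0.811 to 1.42) and 0.846 (0.563 to 1.32), both including 1, and Cebpa ratios of 0.650 (0.409 to 0.999) and 0.927 (0.636 to 1.40).

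**Figure D4:**
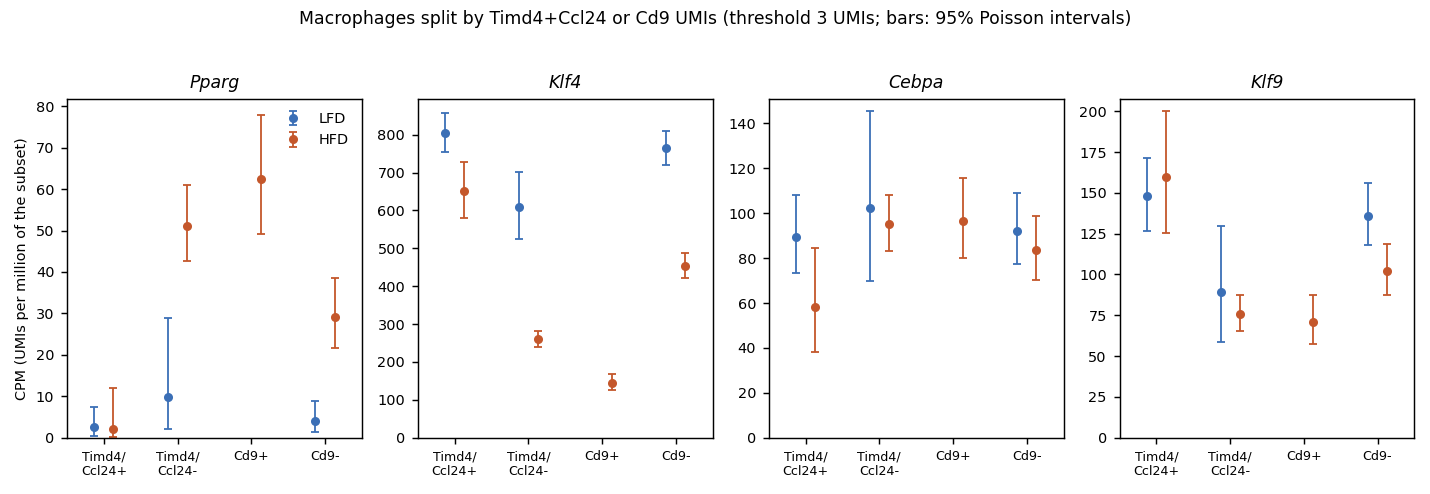
CPM (y axis, linear from 0) of Pparg, Klf4, Cebpa and Klf9 in macrophage barcodes with (+) or without (-) at least 3 UMIs of Timd4 and Ccl24 together, or of Cd9, on LFD (blue) and HFD (orange), with exact Poisson 95% intervals. The LFD library has no point for Cd9+ because it held 0 such barcodes. Pparg on HFD is at 2.15 CPM in the first Timd4/Ccl24 subset and at 51.2 CPM in the second, and Klf4 is lowest in HFD Cd9+ barcodes.

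Pattern likeness was computed for the other members over the same 13 sums, which share libraries, depth and classes, and is given as a description. Cebpb was closest to Hk2 (r 0.941), Lrp1 (0.932) and Pdia3 (0.931), and Klf4 to Wnt4 (0.946), Fam102b (0.943) and Thbd (0.942). Ebf1 was closest to Hs3st1 (0.902), Hdac7 (0.899) and Phlpp1 (0.873). The third genes of Klf9 and Pparg were Lima1 (0.961) and Timeless (0.951). For the sparse members the values rest on few UMIs, with Rgs12 (0.966), Pawr (0.965) and Agrn (0.951) for Zfp423 and Wdfy1 (0.963), Smim8 (0.958) and Mrps35 (0.952) for Srebf1.

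Partners and targets of the members were read from lists in the same classes. In macrophages the 20 PPAR gamma and C/EBP alpha targets held 13 with enough UMIs, of which 4 were at least 2-fold higher on HFD and 2 lower, where 6.36% of all genes in the class were higher and 6.77% lower. The higher ones were Lpl (lipoprotein lipase), at 532 CPM on LFD and 1902 CPM on HFD, Plin2 (a lipid droplet coat protein) at 382 and 1474 CPM, Mgll (monoglyceride lipase) at 8.07 and 34.5 CPM, and Fabp4 (a fatty acid binding protein) at 248 and 857 CPM. Cfd and Retn, secreted products of fat cells, were lower, at 42.4 and 6.49 CPM and at 24.9 and 7.18 CPM. The median log2 ratio of the list was 0.14, beside -0.03 over all genes tested. These values, and the macrophage values of the next paragraph, are for the class as a whole. Its make-up by Timd4/Ccl24 and Cd9 barcodes differs between the libraries, and the part of that make-up in the list values was not tested.

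Nr1h3, the gene of the oxysterol receptor LXR alpha, stood at 3.36 CPM on LFD and 31.8 CPM on HFD in macrophages (9.45-fold, 3.91 to 29.8), the 1 gene of 12 other activators and partners that was higher, where 6.36% of all genes were. Egr2, Stat5b and Zbtb16 were the 3 lower ones, at ratios of 0.391, 0.457 and 0.406, where 6.77% of all genes were lower. Of 9 SREBP1 and LXR targets the cholesterol transporter gene Abcg1 was higher, at 30.3 and 78.2 CPM, and Fasn (fatty acid synthase) and Mylip were lower. Of 11 repressors of adipogenesis 4 were lower, among them Klf2 at 779 CPM on LFD and 285 CPM on HFD, and 1, Id3, was higher at 20.9 and 56.0 CPM. Of 16 immediate early genes 7 were lower, among them Jun at 1599 and 569 CPM and Egr1 at 2598 and 952 CPM, with a list median of -0.68. Of 8 glucocorticoid-responsive genes, 3 were lower, with Tsc22d3 at 379 and 141 CPM, while Sgk1 was higher at 32.3 and 79.6 CPM.

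In matrix fibroblasts 1.92% of all genes were at least 2-fold higher on HFD and 3.18% lower. Of 9 PPAR gamma and C/EBP alpha targets 1 was higher, Lpl, at 744 CPM on LFD and 1597 CPM on HFD (2.15-fold). Of 18 repressors, Runx1 was higher at 34.2 and 79.4 CPM and Wisp2, which holds Zfp423 out of the nucleus, was lower at 28.9 and 13.8 CPM. None (0) of 14 other activators was 2-fold apart there, beside 5.1% of all genes. In Pi16/Dpp4/Sema3c fibroblasts Wisp2 stood at 34.7 CPM on LFD and 7.29 CPM on HFD (0.210-fold, 0.0740 to 0.485), and Nr2f2 (COUP-TFII) at 74.3 and 36.4 CPM, the 2 of 18 repressors that were lower, where 3.03% of all genes were. In endothelial cells 6 of 15 PPAR gamma and C/EBP alpha targets and 4 of 10 SREBP1 and LXR targets were at least 2-fold lower on HFD and 0 higher, where 2.24% of all genes were lower. The summed level of the 20 PPAR gamma and C/EBP alpha targets was not lower, at 55555 CPM on LFD and 62726 CPM on HFD. The median log2 ratio of the 15 with enough UMIs was -0.33, beside 0.01 over all genes tested. The lower genes include Cfd at 584 and 36.8 CPM, Retn at 322 and 38.7 CPM, Fasn at 130 and 13.6 CPM and Scd1 at 537 and 94.9 CPM, genes of fat cell products and of lipid synthesis, beside the lower adipocyte markers given above. Adipoq, Plin1, Cidec and Retn are both adipocyte markers and in the list of PPAR gamma and C/EBP alpha targets.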

How the data were processed

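The authors deposited 1 table per library of UMI counts, unnormalized, which Cell Ranger produced against mm10. The header of each count table names Cell Ranger 3.0.2, and the methods of the study name another release. The tables hold barcodes called as cells, before the limits of the study. Diets were taken from the treatment label of each sample, since a protocol field shared by both names the low fat diet for both. Classes were set by UMI thresholds at 200 or more genes, barcodes meeting several of the 4 rules were left out of the classes, and doublets were not called. T cells rest on Cd3d, Cd3e and Cd3g. UMIs were summed over the barcodes of a class and divided by all their UMIs. A gene was counted at 2-fold with 30 UMIs over both libraries. Thinning drew 1000 UMIs per barcode. Medians of log2 ratios added 0.5 UMIs. No test was possible with 1 library per diet.

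The members, classes, gene lists and promoter motifs were chosen with earlier results of these data known, so no list supports a result on its own. Named were all members, up to 4 genes per list and class with the largest ratios, and the 3 genes of closest pattern to each member with 50 UMIs. Adipocyte markers and other genes outside this rule that the text names were chosen after their values were seen. The ratio method was tried on simulated independent Poisson counts, the error that its intervals assume. Spread between barcodes, animals or libraries was not simulated. Gene positions come from GENCODE M21 (GRCm38) and promoter sequences from RefSeq (GRCm38.p6). Python 3.11.15, numpy 2.4.6, scipy 1.17.1, pandas 2.3.3 and matplotlib 3.10.9 were used. Alternatives were the filter of the study (200 to 2500 genes, under 5% mitochondrial UMIs), doubled thresholds, other scalings and minimums, and subsets of barcodes.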

Additional observations from a re-analysis of the deposited data

Results flagged for a closer look

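Klf4 stood out because its HFD/LFD ratio lay on one side of 1 in matrix fibroblasts, at 1.08, and on the other side in the other classes with enough UMIs. The ratio was 0.862 in Pi16/Dpp4/Sema3c fibroblasts, 0.848 in endothelial cells and 0.422 in macrophages. The difference between classes was not tested, since each diet has 1 library. In matrix fibroblasts the ratio was 0.987 under the filter of the study, so the direction there depends on the barcodes kept. In endothelial cells it was 1.09 under that filter and 1.15 among barcodes low in immediate early UMIs. In macrophages it stayed between 0.406 and 0.490 over 7 other settings.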

How the results depend on the processing

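Over 25 member ratios between diets and 7 alternatives, 149 of 175 values stayed inside the main 95% interval and 26 left it, with 18 on the other side of 1 in 10 ratios and 0 among the 2 that were 2-fold apart, Pparg and Klf4 in macrophages. Pparg ranged from 6.48 to 16.1 and Klf4 from 0.406 to 0.490, beyond 2-fold under all 7. Of the subsets added after the data were seen, macrophages with at least 3 Timd4 and Ccl24 UMIs gave a Pparg ratio of 0.850 (0.0162 to 10.6) on 4 UMIs, and those with fewer 5.16 (1.73 to 25.4), below the range above and with an interval that begins under 2-fold. Klf4 came inside 2-fold with at least 3 Timd4 and Ccl24 UMIs (0.809), with fewer than 3 Cd9 UMIs (0.594) and with fewer than 3 Trem2 and Spp1 UMIs (0.570). With at least 3 Trem2 and Spp1 UMIs it was 0.5003. Cebpa in barcodes meeting both vascular rules, also tried after the data were seen, ranged from 0.283 to 0.414 over 5 alternatives, and under the filter of the study no ratio could be had. Ebf2 in Pi16/Dpp4/Sema3c fibroblasts ranged from 0.540 to 0.633. Cebpb there ranged from 0.964, with class thresholds doubled, to 1.37. Klf9 in macrophages ranged from 0.317, under the filter of the study, to 0.929, among barcodes low in immediate early UMIs. In matrix fibroblasts Klf9 ranged from 0.703 to 0.903, and in Pi16/Dpp4/Sema3c fibroblasts from 0.531 to 0.882. With no minimum of UMIs, the members 2-fold apart numbered 1 in Pi16/Dpp4/Sema3c fibroblasts, 2 in endothelial cells and 6 in mural cells, against 0 in each with the minimum. With barcodes of several rules counted in each class there was 1 in endothelial cells and 1 in mural cells, and with thresholds doubled 1 in mural cells. Between the fibroblast classes the count was 0, against 1, under the filter of the study and with at least 100 UMIs. No paired analysis was possible because each diet has 1 library. Depth limits Zfp423, Srebf1 and all mural values.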
